A study of Caenorhabditis elegans with 20 samples.

Results

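The *oac* genes of *C. elegans* (O-acyltransferase homologs) were followed over wild-type and *ahr-1(ju145)* worms with and without curcumin. All probe sets whose only gene symbol begins with oac- were taken, which gave 55 probe sets for 55 genes, out of 25546 probe sets with a single symbol and 29317 in all. Membership was set by names alone and by no measured value, although earlier results of these data were known when the family was taken. Another 2 probe sets carry the symbols *oac-25* and *oac-28* together and were not members, since their signal cannot be given to either gene.

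The *oac* genes encode predicted multi-pass membrane proteins with an acyltransferase-3 domain, a fold that in bacteria moves acetyl and other acyl groups from a donor onto sugars and other acceptors. The family is large in *C. elegans*, and for most of the worm genes no substrate has been assigned. Better known worm proteins with the same domain are NRF-6 and NDG-4, which are needed for yolk transport and for the nose contraction seen with fluoxetine, RHY-1, a repressor of the hypoxia-inducible factor HIF-1, and BUS-1, which bacterial pathogens of the worm need in order to adhere to its surface.

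Total RNA of whole worms was hybridised to Affymetrix arrays in 4 groups of 5 arrays: curcumin-treated *ahr-1(ju145)*, DMSO-treated *ahr-1(ju145)*, curcumin-treated wild-type and DMSO-treated wild-type. Worms were kept from the egg to day 3 on plates with 100 µM curcumin, a plant polyphenol, in 0.1% DMSO, or with 0.1% DMSO alone, so that every group received the solvent. *ahr-1* encodes the worm aryl hydrocarbon receptor, a transcription factor, and *ju145* is a mutant allele carried by a single strain (CZ2485), compared with the wild-type strain N2. The methods describe 5 independent worm samples per condition and exclude replicate 5 of the curcumin-treated mutant on quality, which leaves 19 arrays. In whole worms a lower signal cannot be told apart as fewer cells that express a gene or less RNA in each cell.

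Values are log2 RMA values, which range over 1.52 to 14.26 on these arrays, and a difference of 1 is a doubling of the signal. Correlations of arrays with their own group ran from 0.990 to 0.993. A probe set was called when limma's adjusted p over all 29317 probe sets was under 0.1, the threshold of the methods. The *ahr-1* transcript itself did not pass in the mutant against wild-type under DMSO (log2 difference −0.34, SE 0.14, adjusted p = 0.350), so these arrays do not check the strain label through that gene. The clearest shift in the marker lists was in genes of the larval molt: in the mutant 6 of 9 molting markers were called lower than in wild-type under DMSO, and 4 of 9 under curcumin. Of 10 markers of hypodermis and cuticle, 2 were called lower in the mutant than in wild-type under DMSO, and 1 under curcumin. None of the lists for embryo, germline and oocyte, sperm or neuron had a called member in any comparison.

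Most *oac* probe sets gave a weak signal. The mean over the 19 arrays was below the array-wide median of 4.25 for 48 of the 55 genes and below the 25th percentile of 3.21 for 27 of them, against 50.2% of all probe sets below the median. *oac-2* gave the lowest mean, 2.63, and *oac-46* the highest, 7.54. The 7 genes at or above the median were *oac-46*, *oac-59*, *oac-6*, *oac-14*, *oac-20*, *oac-31* and *oac-51*. Of these 7, 5 were called in at least 1 comparison below, while 0 of the 48 dimmer genes were. The same split was not counted over all probe sets, so these counts do not set the family apart. Probe affinity differs between probe sets, so these levels do not rank the transcripts. The values of 0 members were identical to those of another probe set, and probe sequence shared between related *oac* genes was not checked. The spread within groups was close to that of the array as a whole, with a median SD of 0.191 for the members against 0.177 for all probe sets, and ran from 0.0922 to 0.469 among the members. *oac-6* and *oac-14* varied most.

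Curcumin moved 4 *oac* genes when its difference from DMSO was averaged over the strains: *oac-14* rose by nearly 1 log2 unit, and *oac-6*, *oac-20* and *oac-31* fell by 0.55 to 0.99. Called higher was 1 of 55 members (1.82%), against 0.576% of all probe sets, and called lower were 3 of 55 (5.45%), against 0.153% of all probe sets. At an unadjusted p under 0.05 there were 11 of 55, against 10.2% of all probe sets. The median difference of the members was 0.00, as it was over all probe sets. The remaining 51 genes lay between −0.30 (*oac-54*) and 0.23 (*oac-15*), and for 50 of the 55 genes the 95% interval of the difference lay within 0.5 log2 units of 0.

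**Figure D1:**
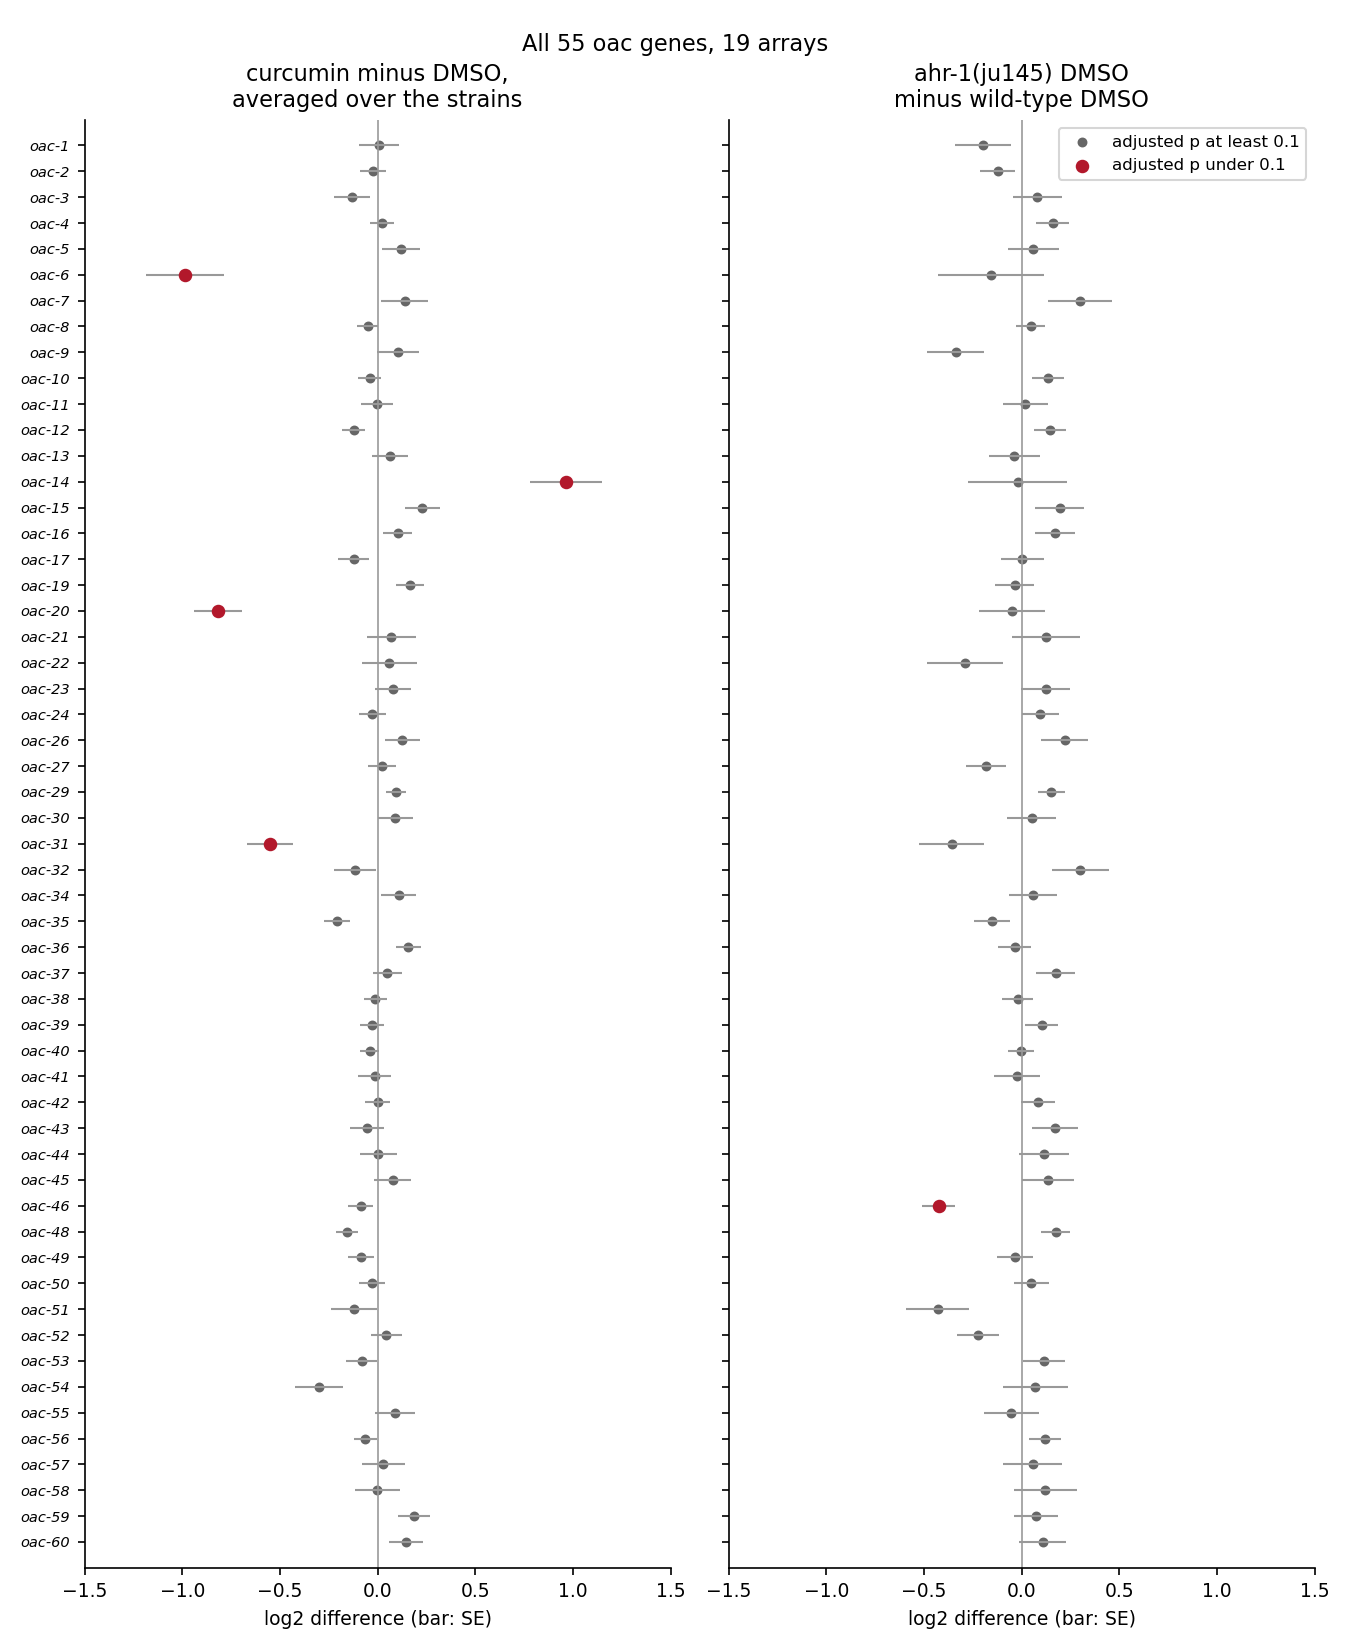
Log2 difference of all 55 *oac* genes with its SE, for curcumin minus DMSO averaged over the strains (left) and for DMSO-treated *ahr-1(ju145)* minus DMSO-treated wild-type (right), each from 19 arrays. Red points passed an adjusted p of 0.1: *oac-14*, *oac-6*, *oac-20* and *oac-31* for curcumin, and *oac-46* for the strain.

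*oac-14*, the only member on chromosome X in the WBcel235 gene table, was the one *oac* gene called higher with curcumin. In wild-type it measured 6.68, 6.17, 7.08, 6.19 and 6.59 in the curcumin arrays, against 4.61, 5.04, 5.48, 5.74 and 5.56 in the DMSO arrays. Every curcumin array of wild-type was above every DMSO array. The mean was 6.54 ± 0.38 with curcumin and 5.29 ± 0.46 with DMSO (SD, n = 5 each), a log2 difference of 1.25 (SE 0.25, 95% interval 0.72 to 1.78, a 2.39-fold higher signal, adjusted p = 0.0732).

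In *ahr-1(ju145)* the groups overlapped. *oac-14* measured 6.46, 5.75, 5.79 and 5.78 in the 4 curcumin arrays used, against 5.07, 5.03, 5.14, 6.18 and 4.91 in the DMSO arrays. A single DMSO array, replicate 4, stood above 3 of the 4 curcumin arrays, and the other 4 DMSO arrays were below all of them. The difference was 0.68 (SE 0.27, adjusted p = 0.611). Without that DMSO array it was 0.91 (adjusted p = 0.246), and without curcumin replicate 1, the highest of the curcumin arrays, it was 0.51 (adjusted p = 0.703).

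Averaged over the strains the *oac-14* difference was 0.97 (SE 0.18, a 1.95-fold higher signal, adjusted p = 0.0197). The curcumin difference was smaller in *ahr-1(ju145)* than in wild-type by 0.58 (SE 0.37), but the 95% interval of −1.35 to 0.20 includes 0 (adjusted p = 1.00). That difference between the strains was −0.35 without DMSO replicate 4 and −0.75 without curcumin replicate 1 of the mutant, and was called in neither case. Under curcumin *oac-14* was at 5.95 ± 0.34 in *ahr-1(ju145)* (SD, n = 4) and at 6.54 ± 0.38 in wild-type (SD, n = 5), which did not pass adjustment (−0.60, adjusted p = 0.521). Under DMSO the strains were at 5.27 ± 0.52 in *ahr-1(ju145)* and 5.29 ± 0.46 in wild-type (SD, n = 5 each; −0.02, adjusted p = 0.991). The wild-type call was not stable: it was lost without either of curcumin replicates 1 and 3 (adjusted p = 0.226 and 0.262) and without any 1 of DMSO replicates 1, 2, 3 and 5 (adjusted p = 0.231, 0.204, 0.114 and 0.130), while the averaged call held without each array in turn.

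*oac-20*, on chromosome V, was the member with the lowest p for curcumin averaged over the strains, and the 2 treatments did not overlap in either strain. In *ahr-1(ju145)* it measured 4.82, 5.59, 4.85 and 5.10 in the curcumin arrays, against 6.10, 6.17, 5.83, 6.33 and 5.74 in the DMSO arrays. In wild-type it measured 5.24, 5.77, 5.54, 5.38 and 5.05 in the curcumin arrays, against 5.78, 6.43, 6.21, 5.84 and 6.16 in the DMSO arrays. The gap between the treatments was narrow, 5.77 for the highest curcumin array of wild-type and 5.78 for the lowest DMSO array.

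*oac-20* fell by 0.95 in *ahr-1(ju145)* (SE 0.18, adjusted p = 0.0792), while the wild-type difference of −0.69 (SE 0.17) had an adjusted p of 0.243. Averaged over the strains it fell by 0.82 (SE 0.12, 95% interval −1.07 to −0.56, a 1.76-fold lower signal, adjusted p = 0.00285). The strains' differences were −0.26 apart (SE 0.25, 95% interval −0.77 to 0.25). The call in *ahr-1(ju145)* and its absence in wild-type thus do not show that the strains responded differently. With the replicate number as a block *oac-20* was called in wild-type too (adjusted p = 0.0317). The call in *ahr-1(ju145)* was lost without any 1 of the 5 DMSO arrays (adjusted p = 0.131 to 0.201) and without curcumin replicates 1, 3 or 4 (0.293, 0.356 and 0.140), and the averaged call held without each array in turn.

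*oac-6*, also on chromosome V, had the largest decrease of the family and the widest spread within groups. In *ahr-1(ju145)* it measured 5.67, 4.96, 5.21 and 5.00 in the curcumin arrays, against 5.68, 6.19, 6.52, 7.23 and 6.35 in the DMSO arrays. In wild-type it measured 5.13, 5.49, 6.46, 5.94 and 5.81 in the curcumin arrays, against 5.96, 6.44, 6.86, 6.46 and 7.04 in the DMSO arrays. The treatments did not overlap in *ahr-1(ju145)*, with 5.67 for the highest curcumin array and 5.68 for the lowest DMSO array, and in wild-type curcumin replicate 3 lay among the DMSO arrays.

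The *oac-6* difference was −1.19 in *ahr-1(ju145)* (SE 0.29, adjusted p = 0.254) and −0.79 in wild-type (SE 0.27, adjusted p = 0.597), and neither was called. Averaged over the strains *oac-6* fell by 0.99 (SE 0.20, 95% interval −1.40 to −0.57, a 1.98-fold lower signal, adjusted p = 0.0295). This call held without each array in turn.

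*oac-31*, on chromosome V and with the lowest mean signal of the called genes, fell as well. In *ahr-1(ju145)* *oac-31* measured 3.92, 4.09, 3.96 and 4.25 in the curcumin arrays, against 4.41, 4.18, 4.69, 5.16 and 4.24 in the DMSO arrays. In wild-type it measured 4.25, 4.16, 4.42, 4.34 and 4.19 in the curcumin arrays, against 4.42, 4.75, 5.05, 5.02 and 5.24 in the DMSO arrays. The treatments overlapped in *ahr-1(ju145)* and met at 4.42 in wild-type. The curcumin arrays lay closer together than the DMSO arrays in both strains, with SDs of 0.15 and 0.40 in *ahr-1(ju145)* and of 0.11 and 0.32 in wild-type. Averaged over the strains *oac-31* fell by 0.55 (SE 0.12, a 1.46-fold lower signal, adjusted p = 0.0481), and the call was lost without curcumin replicate 1 or 3 of *ahr-1(ju145)* (adjusted p = 0.114 and 0.132). The differences within strains were −0.48 in *ahr-1(ju145)* (adjusted p = 0.572) and −0.62 in wild-type (adjusted p = 0.343).

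**Figure D2:**
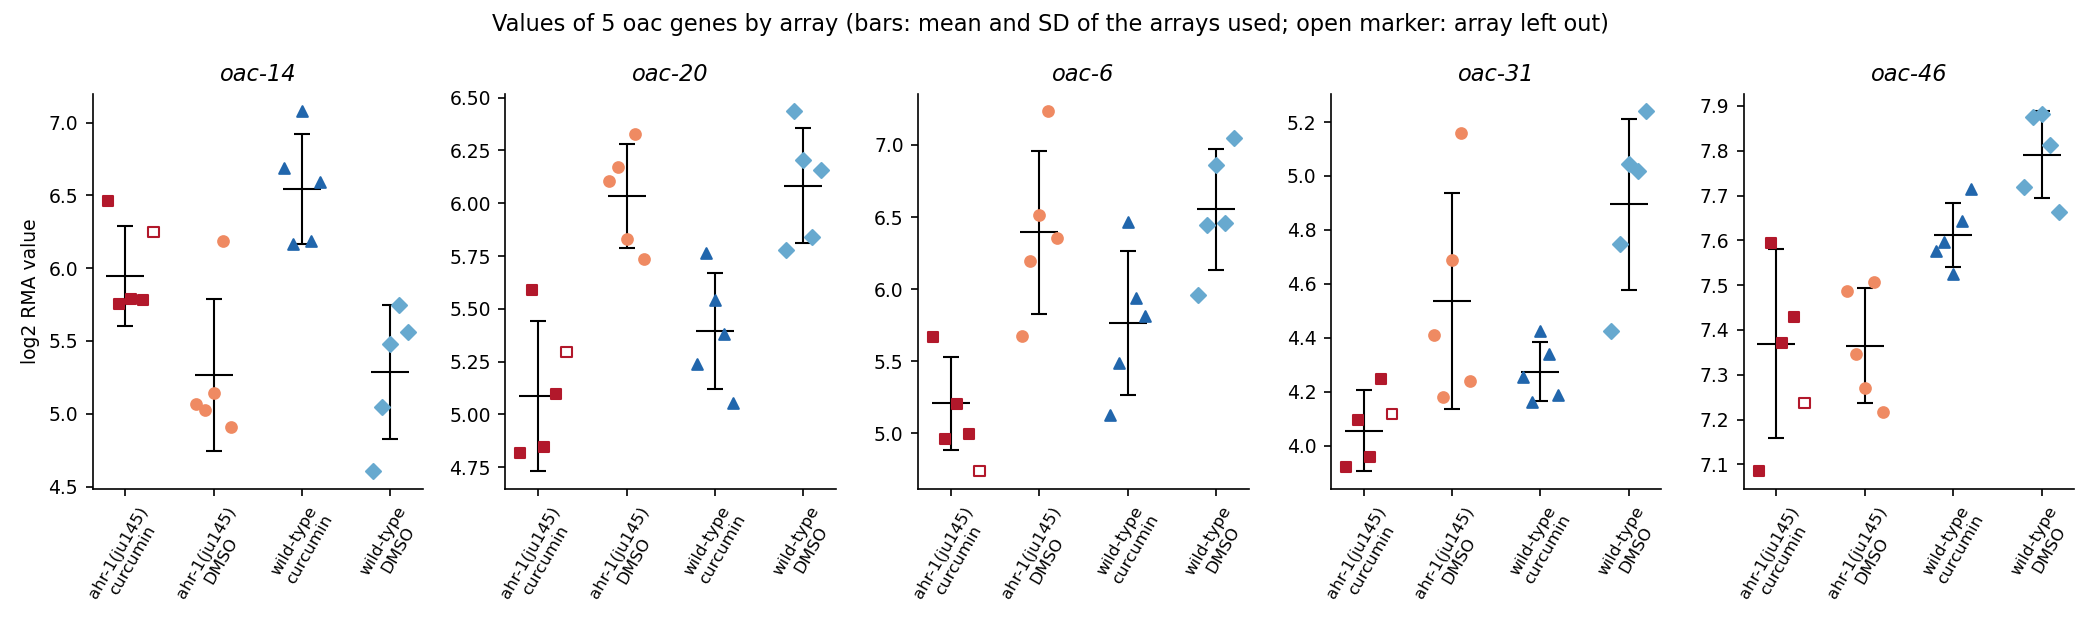
Log2 RMA values of 5 *oac* genes in every array, by group, with the mean and SD of the arrays used as black bars and the array left out of curcumin-treated *ahr-1(ju145)* as an open marker. *oac-14* is higher and *oac-20*, *oac-6* and *oac-31* are lower in the curcumin groups of both strains, and *oac-46* is lower in both *ahr-1(ju145)* groups.

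Within each strain curcumin gave few calls. In wild-type 1 of 55 members was called higher (*oac-14*), against 0.133% of all probe sets, and 0 were called lower, against 0.0102%. At an unadjusted p under 0.05 there were 5 of 55 in wild-type (9.09%), against 6.49% of all probe sets. With the replicate number as a block *oac-20* and *oac-31* were called lower in wild-type as well (adjusted p = 0.0317 and 0.0856). The calls over all probe sets then grew from 42 to 219. In *ahr-1(ju145)* 0 members were called higher, against 0.058% of all probe sets, and 1 was called lower (*oac-20*), against 0.00682%. At an unadjusted p under 0.05 there were 11 of 55 in *ahr-1(ju145)*, against 7.45% of all probe sets. These 11 were *oac-14*, *oac-19*, *oac-36* and *oac-9*, higher with curcumin, and *oac-20*, *oac-6*, *oac-48*, *oac-31*, *oac-54*, *oac-53* and *oac-56*, lower with curcumin. Groups without any overlap were seen for *oac-14* and *oac-20* in wild-type, and for *oac-6*, *oac-20* and *oac-19* in *ahr-1(ju145)*. Over all probe sets, such separation was found for 0.634% upwards and 0.365% downwards in wild-type, and for 1.21% and 1.31% in *ahr-1(ju145)*.

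Across the 55 genes the curcumin differences of the 2 strains, which share no arrays, correlated at r = 0.762. This rested on the 4 called genes, since r was 0.259 over the other 51, of which 27 had the same sign in both strains. Genes are not independent replicates, and the value is a description. No *oac* gene was called for the difference of the curcumin effect between the strains: 0 of 55 were higher, against 0% of all probe sets, and 0 were lower, against 0% of all probe sets. At an unadjusted p under 0.05 there were 4 of 55 (7.27%), against 3.36% of all probe sets, and the lowest adjusted p among all probe sets was 0.850.

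The gene with the lowest unadjusted p for that difference was *oac-48*. It measured 2.97, 2.94, 2.70 and 3.06 in curcumin-treated *ahr-1(ju145)*, against 3.04, 3.28, 3.14, 3.24 and 3.44 in DMSO-treated *ahr-1(ju145)*. In wild-type it stayed between 3.00 and 3.12 with curcumin and between 2.95 and 3.11 with DMSO. The curcumin difference was −0.31 in *ahr-1(ju145)* (SE 0.08, adjusted p = 0.312), and the difference between the strains was −0.31 (SE 0.11, adjusted p = 1.00). The other 3 genes were *oac-53* (−0.34), *oac-9* (0.46) and *oac-37* (−0.31). The mean signal of *oac-48* lies below the 25th percentile of the arrays, where RMA compresses differences.

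**Figure D3:**
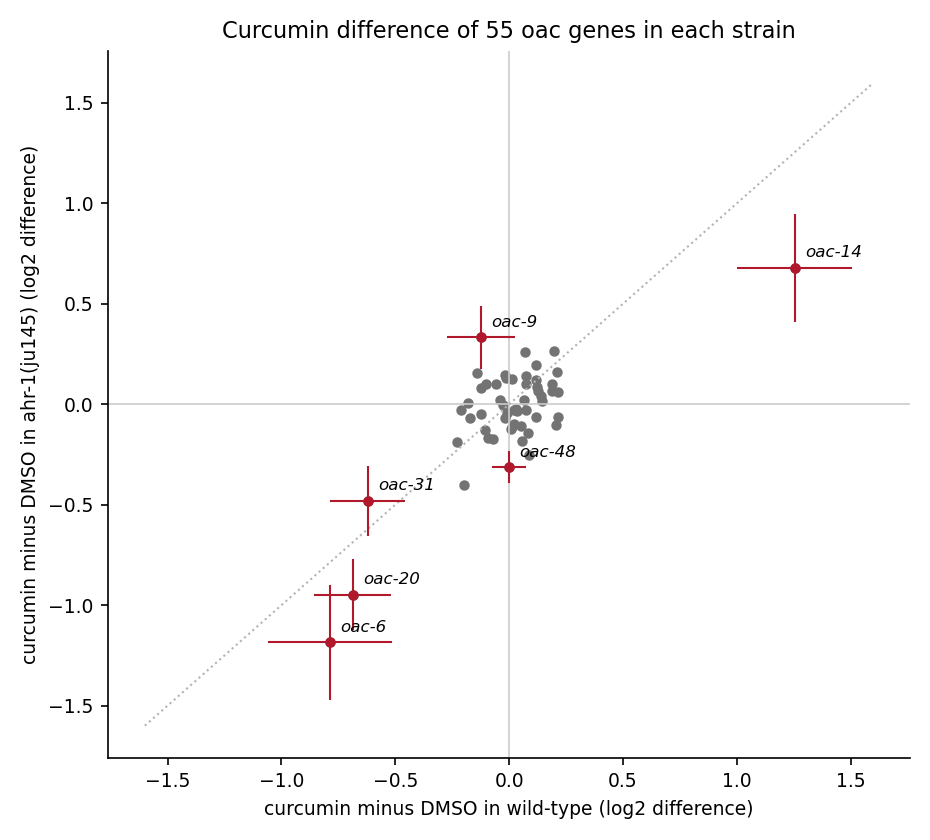
Log2 difference of curcumin minus DMSO for each of the 55 *oac* genes, wild-type on the horizontal axis and *ahr-1(ju145)* on the vertical axis, with SE bars for 6 named genes and a dotted line of equal differences. *oac-14* lies at the upper right, *oac-31*, *oac-20* and *oac-6* at the lower left, and the remaining genes around 0.

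Loss of *ahr-1* moved 1 *oac* gene, *oac-46*, which fell in DMSO-treated *ahr-1(ju145)* against DMSO-treated wild-type. Called higher were 0 of 55 members, against 0.498% of all probe sets, and called lower was 1 of 55 (1.82%), against 1.31% of all probe sets. At an unadjusted p under 0.05 there were 6 of 55 (10.9%), against 11.2% of all probe sets. These shares are near those of the array as a whole. The median of the members was 0.06, against 0.02 over all probe sets. Of the 54 genes not called, the lowest difference was −0.43 (*oac-51*) and the highest 0.30 (*oac-32*). The DMSO arrays of each strain enter both this comparison and the curcumin comparison of that strain.

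*oac-46*, on chromosome II, is the brightest member. It measured 7.49, 7.35, 7.27, 7.51 and 7.22 in DMSO-treated *ahr-1(ju145)*, against 7.72, 7.88, 7.88, 7.81 and 7.66 in DMSO-treated wild-type. All 5 arrays of *ahr-1(ju145)* were below all 5 of wild-type, a separation that 1.83% of all probe sets showed in that direction. The mean was 7.37 ± 0.13 in *ahr-1(ju145)* and 7.79 ± 0.10 in wild-type (SD, n = 5 each), and *oac-46* fell by 0.43 (SE 0.09, 95% interval −0.61 to −0.25, a 1.34-fold lower signal, adjusted p = 0.0291). The call held without each array in turn.

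Under curcumin *oac-46* measured 7.09, 7.59, 7.37 and 7.43 in *ahr-1(ju145)*, against 7.58, 7.60, 7.52, 7.64 and 7.72 in wild-type. One array of *ahr-1(ju145)*, replicate 2, reached the wild-type range. The difference was −0.24 (SE 0.09) and did not pass adjustment (adjusted p = 0.381). Curcumin itself gave a difference of −0.09 averaged over the strains (SE 0.06, adjusted p = 0.707).

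Under curcumin 0 of 55 members were called higher in *ahr-1(ju145)* than in wild-type, against 0.174% of all probe sets, and 0 were called lower, against 0.379%. At an unadjusted p under 0.05 there were 4 of 55 (7.27%), against 8.83% of all probe sets. *oac-42* had the lowest p (0.29, SE 0.09, adjusted p = 0.239). It measured 3.03, 2.72, 3.17 and 2.72 in curcumin-treated *ahr-1(ju145)*, against 2.67, 2.77, 2.42, 2.58 and 2.66 in curcumin-treated wild-type, so that the groups overlapped. The other 3 genes were *oac-46*, *oac-52* and *oac-14*, all lower in *ahr-1(ju145)*.

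The molting markers moved with some of these results. Their mean log2 value was 6.56 in curcumin-treated *ahr-1(ju145)*, 6.97 in DMSO-treated *ahr-1(ju145)*, 7.44 in curcumin-treated wild-type and 7.87 in DMSO-treated wild-type. Their summed signal ranged over 977 to 1402, 1562 to 2515, 1517 to 4565 and 2857 to 5413 in these same groups, and every marker had a group mean above the array-wide median in all 4 groups. Within groups, *oac-51* and *oac-52*, neighbours on chromosome IV, varied with the marker mean (r = 0.623 and 0.655 over deviations from the group means, 19 arrays), with a Spearman's rho of 0.623 and 0.707. Without the 2 arrays farthest out in the markers r was 0.470 for *oac-51* and 0.530 for *oac-52*. For *oac-51* r was 0.668 in DMSO-treated and 0.850 in curcumin-treated wild-type. In *ahr-1(ju145)* it was 0.483 with DMSO and 0.043 with curcumin. For *oac-52* it ran from 0.388 to 0.747 in the 4 groups. *oac-51* varied about as much, in the opposite direction, with the sperm markers (r = −0.642 over the deviations). For *oac-46* r over the deviations was 0.020, and −0.239 without the 2 arrays farthest out, with a negative relation in both DMSO groups and a positive one in both curcumin groups. Over the values, with the groups included, r was 0.684.

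*oac-51* measured 4.19, 3.74, 4.36, 4.09 and 4.19 in DMSO-treated *ahr-1(ju145)*, against 4.67, 4.32, 4.15, 4.49 and 5.09 in DMSO-treated wild-type. The groups overlapped, and the difference was −0.43 (SE 0.16, adjusted p = 0.280). With the marker mean as a covariate, a choice made after seeing the data, it was 0.02. The *oac-46* difference was −0.42 with that covariate, against −0.43 without it, but lost its call (adjusted p = 0.227). With curcumin averaged over the strains 1 of the 9 markers was called lower (median −0.63), and with the same covariate the averaged calls of *oac-14* and *oac-31* were lost (adjusted p = 0.377 and 0.136) at differences of 0.76 and −0.65, against 0.97 and −0.55 without the covariate, while those of *oac-20* and *oac-6* held. The marker mean follows the groups, so that this fit estimates their differences less precisely. A call can thus be lost without a smaller difference, as for *oac-46* and *oac-31*. The part of the molt in these results was not tested.

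**Figure D4:**
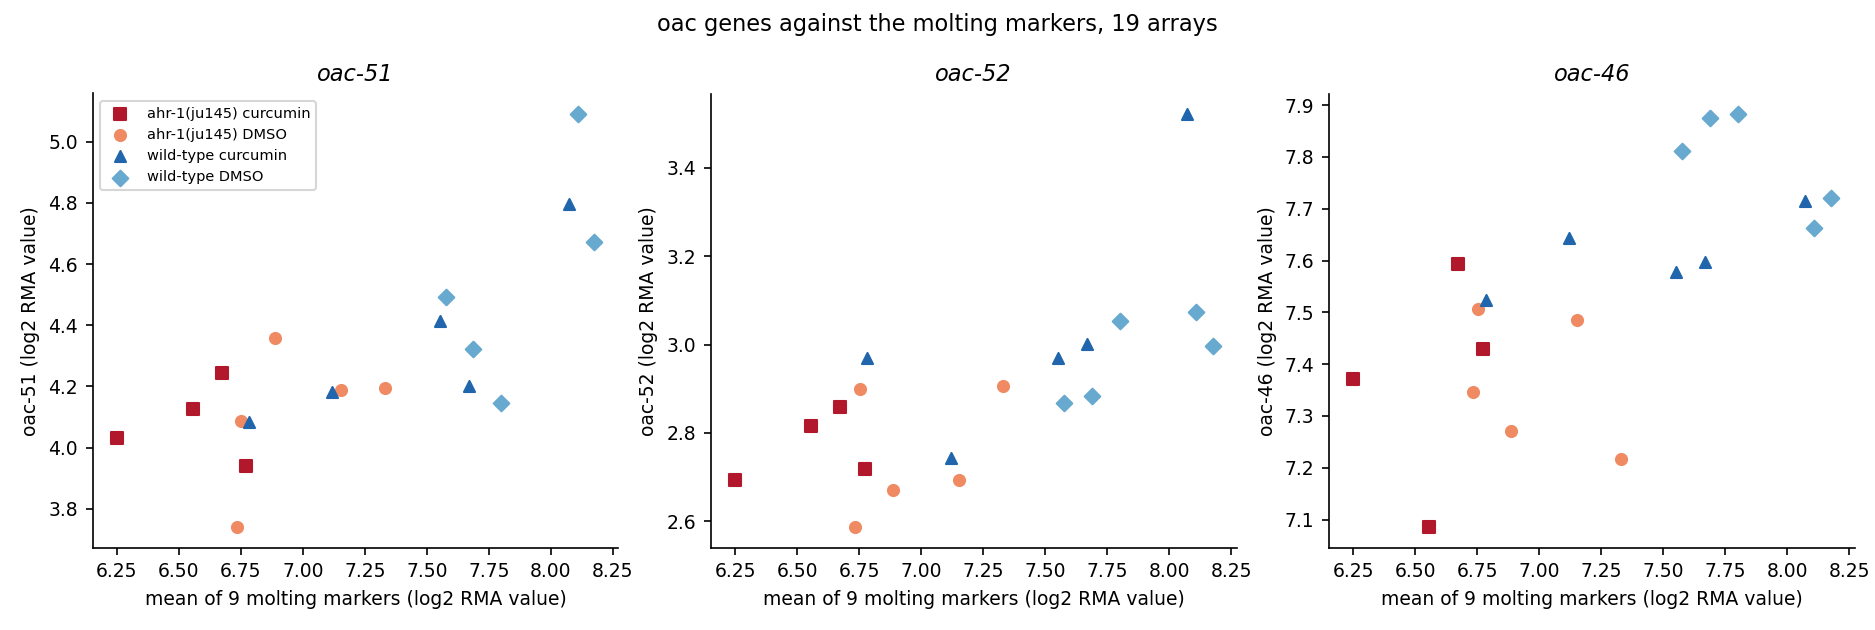
Log2 RMA values of *oac-51*, *oac-52* and *oac-46* against the mean of 9 molting markers in each of the 19 arrays, by group. *oac-51* and *oac-52* rise with the markers over deviations from the group means (r = 0.623 and 0.655). *oac-46* separates the strains under DMSO but not under curcumin. Its r is 0.020, with opposite directions in the DMSO and the curcumin groups.

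Of the 4 genes that moved with curcumin, *oac-14*, *oac-6* and *oac-31* also varied together among replicates. Over deviations from the group means of the 19 arrays, *oac-14* correlated with *oac-31* (r = 0.717), *oac-6* (r = 0.713) and *oac-35* (r = 0.610), and *oac-6* with *oac-31* (r = 0.643). Without the 2 arrays farthest out in *oac-14*, DMSO replicate 4 of *ahr-1(ju145)* and curcumin replicate 3 of wild-type, r was 0.547 with *oac-31* and 0.514 with *oac-6*, and Spearman's rho over all 19 arrays was 0.644 and 0.647. Arrays high in *oac-14* for their group were thus often high in *oac-6* and *oac-31*, although in the curcumin groups *oac-14* was higher and *oac-6* and *oac-31* were lower. For *oac-6* the direction was the same within all 4 groups. For *oac-31* it was the same within 3 groups and the opposite in curcumin-treated *ahr-1(ju145)*, where replicate 1 had the highest *oac-14* (6.46) and the lowest *oac-31* (3.92). DMSO replicate 4 of *ahr-1(ju145)* had the highest value of its group for each of *oac-14*, *oac-6* and *oac-31* (6.18, 7.23 and 5.16). Over the values themselves, with the groups included, the correlation of *oac-14* was −0.19 with both genes. *oac-20* stood apart from *oac-14* within groups (r = 0.062) and varied with *oac-46* (r = 0.531).

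Over all 1485 pairs of members the median r was 0.018, with a range of −0.718 to 0.726, and 47 pairs exceeded 0.5. The pairs share the same 19 arrays, and the values are a description. The intestine markers, of which 1 of 10 was called higher with curcumin averaged over the strains, varied with *oac-31* (r = 0.527) and *oac-9* (r = 0.523), and less with *oac-14* (r = 0.365) and *oac-6* (r = 0.220). *oac-14*, *oac-6* and *oac-31* also varied with the neuron markers (r = 0.603, 0.566 and 0.432). With the embryo markers they varied in the opposite direction (r = −0.594, −0.579 and −0.549). The intestine list was thus not the one closest to *oac-14* and *oac-6*. With the intestine mean as a covariate the wild-type call of *oac-14* was lost (adjusted p = 0.104) and the 4 averaged calls held.

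**Figure D5:**
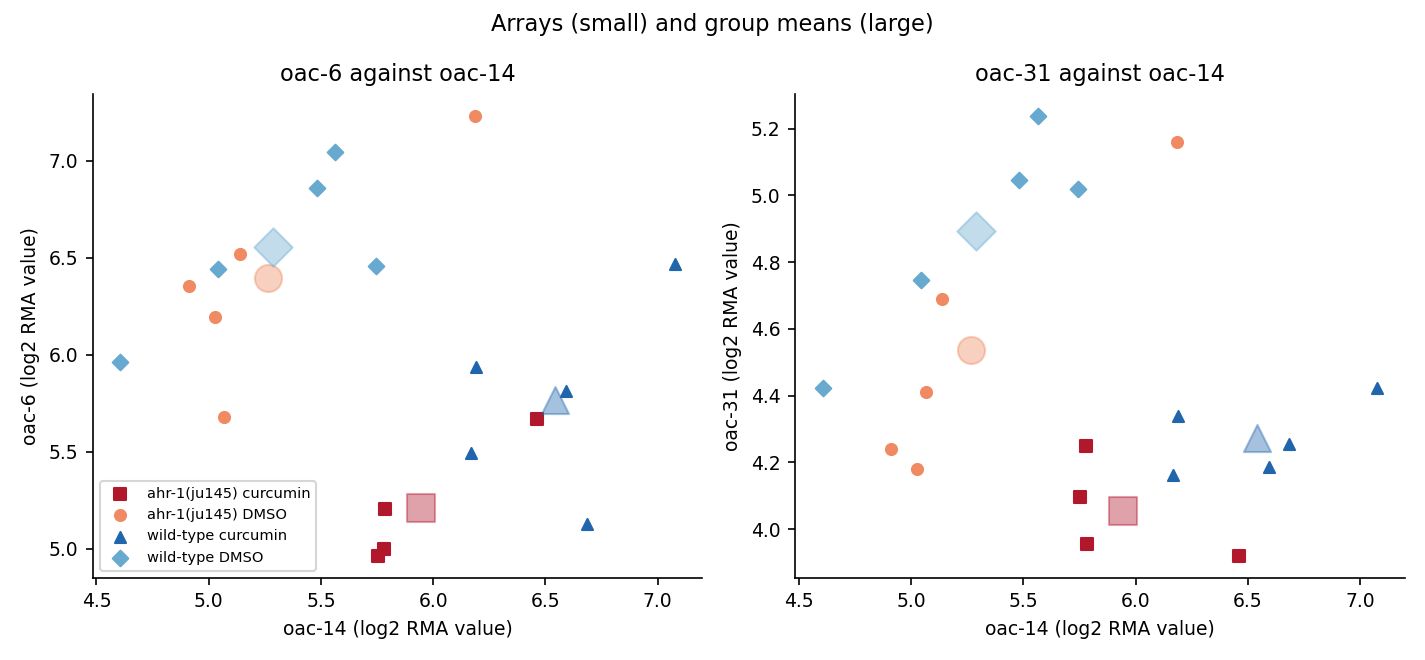
Log2 RMA values of *oac-6* (left) and *oac-31* (right) against *oac-14* in the 19 arrays (small markers) with the 4 group means (large, pale markers). Over deviations from the group means the values rise together (r = 0.713 and 0.717), while the curcumin means lie to the right of and below the DMSO means.

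Outside the family, the genes whose values were most like those of *oac-14* over the 19 arrays were *C51E3.10* (r = 0.916), *cyp-13A5*, a cytochrome P450 (r = 0.878), *lro-1* (r = 0.849), *C40H1.8* (r = 0.849) and *F58B4.5* (r = 0.847). All 5 were called higher with curcumin averaged over the strains, by 0.60, 0.96, 0.39, 2.17 and 1.19 in the order given. The groups are included in these values, so that a shift with curcumin follows in part from the choice and is a description. Over deviations from the group means r with *oac-14* was 0.834, 0.698, 0.627, 0.742 and 0.680 in the same order. *C40H1.8* and *F58B4.5* were called in each strain, *cyp-13A5* in wild-type alone (1.05, adjusted p = 0.0622, against 0.88, adjusted p = 0.288 in *ahr-1(ju145)*), and no probe set was called for the difference between the strains.

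The 5 called members lie on chromosomes X (*oac-14*), V (*oac-20*, *oac-6* and *oac-31*) and II (*oac-46*). According to WBcel235, 13 members are on chromosome I, 6 on II, 13 on IV, 22 on V and 1 on X, and 19 of the 55 lie next to another member, in 8 runs of at most 3 genes. The 11 neighbouring pairs of members had a median r of 0.057 over deviations from the group means. *oac-51* and *oac-52* (r = 0.569) and *oac-44* and *oac-43* (r = 0.549) varied together most, and *oac-31* and *oac-32* least (r = −0.392). Averaged over the strains *oac-32* differed by −0.12 with curcumin, against −0.55 for *oac-31*. *oac-35* and *oac-36*, a further pair of neighbours, differed by −0.21 and 0.16, and neither was called (adjusted p = 0.217 and 0.362).

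Other acyltransferase genes, and genes of the *rhy-1* and HIF-1 pathway, gave at most 1 call per list and comparison. In lists this short 1 call already exceeds the share over all probe sets. The worm relatives with the same domain, *nrf-6*, *ndg-4*, *rhy-1* and *bus-1*, had 0 of 4 called in any of the 6 comparisons, and the lowest p was that of *bus-1* for curcumin in *ahr-1(ju145)* (−0.30, SE 0.10, adjusted p = 0.499). Of the *rhy-1* and HIF-1 pathway 5 of 7 listed genes were measured by a probe set of their own. Of these 5, 1 was called higher with curcumin averaged over the strains, against 0.576% of all probe sets. It was *cysl-2*, a cysteine synthase-like gene activated by HIF-1 (0.40, SE 0.07, adjusted p = 0.0158), whose call was lost with all 20 arrays (adjusted p = 0.152). Of 9 membrane-bound O-acyltransferases, 1 was called lower in the mutant than in wild-type under DMSO, against 1.31% of all probe sets. It was *hhat-2*, a homolog of Hedgehog acyltransferase (−0.76, SE 0.17, adjusted p = 0.0444). Of 13 *acl* genes, *acl-7* alone was called, higher with curcumin in wild-type (0.63, SE 0.11, adjusted p = 0.0368) and averaged over the strains (0.55, SE 0.08, adjusted p = 0.00252). Over all probe sets 0.133% and 0.576% were called higher in these comparisons.

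Among families of conjugating enzymes, curcumin averaged over the strains gave 4 higher and 1 lower of 67 UDP-glucuronosyltransferases (*ugt*), and 5 higher and 0 lower of 43 glutathione S-transferases (*gst*). Their medians were 0.06 and 0.15, against 0.00 for the 55 *oac* genes and 0.00 for all probe sets. In that comparison the *oac* genes had more calls down than up, and the *ugt* and *gst* genes more calls up than down. More calls up than down was also the direction over all probe sets (0.576% called higher and 0.153% lower). The difference between the families was not tested.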

How the data were processed

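The deposited values are log2 RMA values of 29317 probe sets on 20 Affymetrix arrays. According to the study's methods the authors made them with the oligo package in R (background correction, quantile normalization and summary of probes), so low signals are compressed and differences are on the log2 scale. For the annotation, a genome build was not given in the sources used here, and no coordinates are printed. Symbols are those of the platform, and 55 of 55 members matched the reference gene table. The tables of the authors' own comparisons hold log2 fold changes, p-values and log odds and were not used. Sequences were not used here.

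Groups came from the labels. All probe sets were fitted with limma 3.58.1 in R 4.3.3 (a mean per group, no block, no filter, 15 residual degrees of freedom) on 19 arrays, without replicate 5 of curcumin-treated *ahr-1(ju145)*, which the methods exclude. Tests were two-sided with Benjamini-Hochberg adjustment within each of 6 comparisons and a threshold of 0.1. The fit was tested on simulated data. Precision is limited by the number of arrays. Members, lists and tests were chosen with earlier results of these data known. Named were the called members, the lowest unadjusted p in each direction, the brightest and dimmest members, those most and least like *oac-14*, and called genes of the related lists. That rule also took *oac* neighbours with the closest proteins, which was not applied.

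The labels give replicate numbers. Deviations from the group means of equally numbered arrays correlated at 0.114 to 0.431 over the 5 pairs of the DMSO groups, with a mean of 0.264. All were over 0.1, the limit set for this check of the data alone. In the other comparisons the lowest correlation was under 0.1. The limit draws no sharp line, and no comparison was paired in the reported fit. Equally numbered arrays still correlated positively on average in those comparisons, with a mean of 0.162 for loss of *ahr-1* under curcumin. The curcumin comparisons had means of 0.127 for the mutant and 0.247 for wild-type. Deviations from a group mean cancel out within the group. The mean over unequally numbered arrays thus follows from these values and gives no separate baseline. The reported fit has no block and does not use the likeness of equally numbered arrays. Alternatives were 20 arrays, the compared groups alone, a replicate block, array weights, a further quantile normalization, centred arrays, trend and robust moderation, bright probe sets alone, single-symbol probe sets alone, a threshold of 0.05, each array left out, and, added after the data were seen, the molting or intestine marker mean as a covariate.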

Additional observations from a re-analysis of the deposited data

Results flagged for a closer look

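In 5 of 96 sets of replicates of the named *oac* genes, 1 array stood far from the others of its group, and chance alone marks about 1 in 20. *oac-14* measured 6.46 in replicate 1 of curcumin-treated *ahr-1(ju145)*, where the next array was at 5.79. It measured 6.18 in replicate 4 of DMSO-treated *ahr-1(ju145)*, where the next was at 5.14. *oac-9* was also highest in that DMSO array, at 4.26 against 3.85 for the next. *oac-36* measured 3.61 in replicate 3 of curcumin-treated wild-type, and *oac-59* measured 5.77 in replicate 3 of DMSO-treated *ahr-1(ju145)*. In the array left out of the fit, replicate 5 of curcumin-treated *ahr-1(ju145)*, *oac-14* measured 6.25, above all 5 arrays of DMSO-treated *ahr-1(ju145)*, of which the highest was at 6.18.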

How the results depend on the processing

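Of 146 counts of called *oac* genes under the alternatives, 121 were within 1.5 times the reported count. With 20 arrays the calls were 1, 0, 1, 1, 4 and 0 for loss of *ahr-1* under DMSO and under curcumin, curcumin in wild-type, in the mutant and averaged, and the difference between the strains. With the molting marker mean as a covariate 0 members were called for loss of *ahr-1* under DMSO, 0 for curcumin in wild-type, 0 in the mutant, and 2 averaged over the strains. The fit of the compared groups alone and a threshold of 0.05 each called 0 members for curcumin in wild-type, and likewise 0 in the mutant. The intestine marker mean left 0 in wild-type, and centred arrays left 0 in *ahr-1(ju145)*. With the replicate block 3 members were called for curcumin in wild-type (1 higher, 2 lower), where *oac-20* and *oac-31* passed (adjusted p = 0.0317 and 0.0856). The block changed no other count of *oac* calls, while the calls over all probe sets grew to 931 for loss of *ahr-1* under DMSO (530 without it), 368 under curcumin (162), 219 for curcumin in wild-type (42), 67 in *ahr-1(ju145)* (19) and 792 averaged (214). Over all probe sets, the molting covariate left 25, 17, 7, 3 and 40 calls in these comparisons.

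Leaving out each array in turn gave 3 to 4 called members for curcumin averaged over the strains, 0 to 1 in *ahr-1(ju145)*, 0 to 1 in wild-type, 1 to 1 for loss of *ahr-1* under DMSO, and 0 to 0 for the other comparisons. Over all probe sets the calls then ranged over 112 to 719 for curcumin averaged over the strains, 3 to 25 in *ahr-1(ju145)*, 15 to 105 in wild-type, and 141 to 556 and 47 to 342 for loss of *ahr-1* under DMSO and under curcumin.

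Changes of sign occurred only in differences that were not called. For loss of *ahr-1* under DMSO, *oac-51* was at 0.020 with the molting covariate and *oac-14* at 0.0076 after a further quantile normalization. For loss under curcumin *oac-52* was at 0.032 with the molting covariate. For curcumin in *ahr-1(ju145)* *oac-46* was at −0.022 with 20 arrays, −0.0098 with the replicate block, −0.0046 after quantile normalization and −0.024 with the intestine covariate. Without single arrays, *oac-14* ranged over −0.25 to 0.093, *oac-6* over −0.37 to 0.020 and *oac-20* over −0.12 to 0.039 for loss under DMSO, and *oac-46* over −0.070 to 0.099 for curcumin in *ahr-1(ju145)*. The cause was not tested. Weak signals limit 48 of the 55 genes, whose changes RMA may understate.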
